A study of Rattus norvegicus with 9 samples.

Results

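The comparison described here is that of rat bone marrow mesenchymal stem cells (MSCs) in a fast-relaxing hydrogel with the same kind of cells in a hydrogel of medium relaxation rate. It takes in 6 of the 9 samples of the study, the 3 labelled Fast and the 3 labelled Medium, and every gene of the deposited count table. The remaining 3 samples, from a slowly relaxing gel and labelled Slow, are used to estimate the spread between replicates and to set the step from Fast to Medium beside the step from Medium to Slow. All groups share the source (bone marrow of Rattus norvegicus), the cell type and the culture medium, which the labels give as low glucose DMEM with FBS, penicillin and streptomycin. The cells had been in the matrix, an SA hydrogel, for 48 h. The labelled difference between groups is the rate of stress relaxation alone. Strain, age and sex of the animals, the stiffness of the gels and the number of animals are not stated in the labels. The labels do not state whether the 3 samples within a group are separate animals or separate cultures. The p-values therefore reflect variation among these particular samples, some or all of which could be technical.

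Stress relaxation is the drop in stress over time when a material is held at a constant deformation. In a gel that relaxes quickly an embedded cell can rearrange its surroundings, whereas a slowly relaxing gel holds the cell as an elastic solid would. Mesenchymal stem cells are adherent stromal cells of the marrow that can form bone, cartilage and fat cells, and they sense such properties through integrins, focal adhesions, the actin cytoskeleton and the kinases and transcription factors that these control. Marrow stromal cells are also a main source of the chemokine CXCL12, which retains blood stem cells in the marrow, and of growth factors and cytokines that act on neighbouring cells.

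The 6 libraries held between 14128980 and 15429909 counts. Genes of the mitochondrial chromosome took between 3.213% and 3.782% of the counts in Fast and between 3.573% and 3.62% in Medium. Fast replicates were less alike than Medium ones. A chi-square per degree of freedom, larger where 2 libraries differ more, was 6.36 and 6.05 for the pairs with Fast library 1. It was 3.54 for Fast libraries 2 and 3 and between 2.95 and 3.23 for the Medium pairs. Levels are given as CPM, counts relative to the library size, which was scaled with TMM factors that lay between 1.036 and 1.037 in Fast and between 0.9874 and 0.9879 in Medium. The stromal label was checked against 22 marker genes, whose summed level lay between 7853 and 8155 CPM in Fast and between 7136 and 7240.0 CPM in Medium. Much of that gap came from Cxcl12, which took between 899 and 949 CPM in Fast and between 182 and 187 CPM in Medium. Of the 20 markers that could be tested, 8 were higher in Fast and 6 lower. Thy1, the surface protein CD90, was at 905, 927 and 940.3 CPM in the Fast libraries and 928, 899 and 901 CPM in the Medium libraries. The groups overlapped for this marker, whereas other classical surface markers differed. Nt5e, CD73, was at 61.7 ± 1.19 CPM in Fast and 146 ± 2.51 in Medium, and Eng, CD105, at 56.3 ± 1.03 and 89 ± 4.85. Macrophage and myeloid markers were present as well: the 34 in the table summed to between 4046 and 4266 CPM in Fast and between 2968 and 2996 CPM in Medium. Of the erythroid, lymphocyte and endothelial markers, Hba1, Cd3e and Cldn5 were at 0 in all 6 libraries, but other members were not. The 14 lymphocyte markers summed to between 65.89 and 71.86 CPM in Fast and between 53.97 and 61.26 CPM in Medium, most of it from Cd4, which rat macrophages also carry, and Il7r. The 11 endothelial markers summed to between 54.81 and 60.62 CPM in Fast and between 47.95 and 50.71 CPM in Medium. The 7 erythroid markers summed to between 171.1 and 188.7 CPM in Fast and between 131.6 and 141.3 CPM in Medium, nearly all from Tfrc, the transferrin receptor of many dividing cells. The part of such cells in the results was not tested. Means below are given ± SD over n = 3 libraries of a group and log2 differences, Fast minus Medium, ± SE. A listed value of 0 need not mean absence here, since Fth1, a ferritin gene that nearly every cell uses, is listed at 0 in all 9 libraries. Hspa8, Myh9 and Hsp90aa1, also used by most cells and singled out after their values were seen, reached at most 5.93, 4.75 and 1.5 CPM in the 6 libraries.

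Of 14406 genes with enough counts to test, 4750 (33.0%) differed between Fast and Medium by the quasi-likelihood test of edgeR, with a threshold of 0.05 on the Benjamini-Hochberg adjusted p-value. Levels were higher in Fast for 2254 genes (15.6%) and lower for 2496 (17.3%). A difference of at least 2-fold was reached by 386 higher genes (2.68%) and 343 lower ones (2.38%). Most differences were small: 3182 of the 4750 were under 1.5-fold, and the median size was 0.397 on the log2 scale. The share called grew with the level, from 12.0% of genes under 1 CPM to 59.7% of those over 100 CPM, so the share called in a list also varies with the level of its members. CPM of the 3 Fast and the 3 Medium libraries did not overlap for 6424 genes, or 44.6% of those tested. The balance of directions depended on the scaling: upper quartile factors gave 2734 higher and 1990.0 lower genes, and library size alone gave 3151 higher and 1781 lower. In bulk RNA, fewer cells of a type and less RNA per cell cannot be told apart, and a lower level below may come from either.

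**Figure D1:**
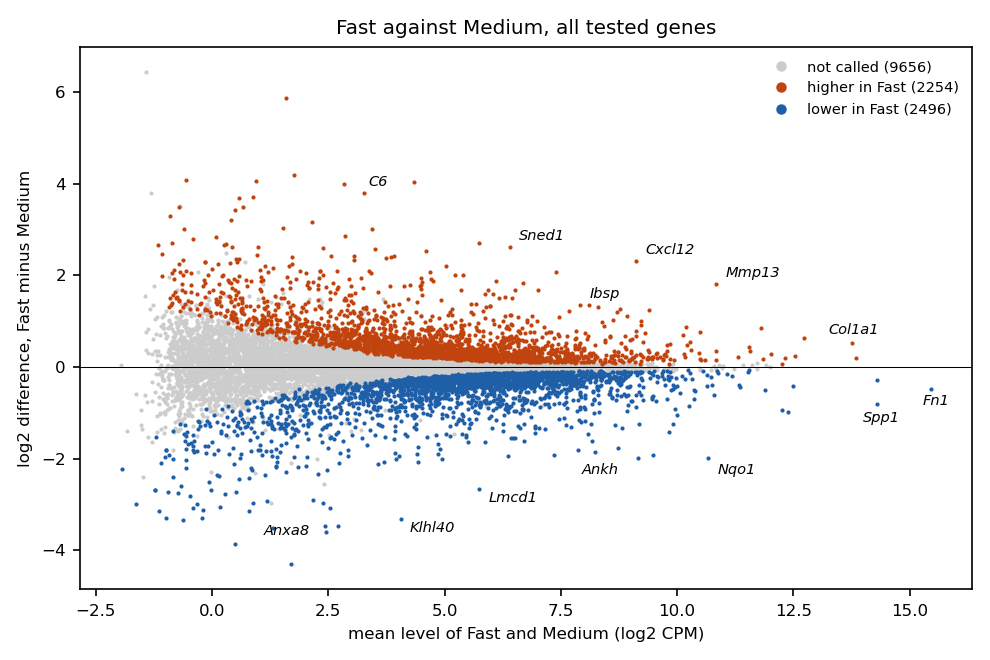
Log2 difference, Fast minus Medium (y axis), against the mean level of both groups in log2 CPM (x axis) for the 14406 tested genes, each point a gene. The 2254 genes called higher in Fast are orange, the 2496 called lower are blue and the rest grey. Named genes span the range of levels, from C6 and Anxa8 at low levels to Fn1 and Spp1 at the right end.

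Gene groups are described by lists of genes with known roles, 48 lists with 1135 entries, of which 1107 were in the table, 121 had counts too low to test and 986 were tested. For each list the number of members higher and lower in Fast and the median log2 difference (Fast minus Medium) are given, to be read against the 33.0% called and the median of 0.0092 over all tested genes. Lists and members were chosen with earlier results of these data known, so a share above 33.0% is a description and no independent support. List medians also move with the scaling, which shifted the median of all genes by up to 0.07. Lists with at least 10 tested members are compared next. Some had a majority of members called lower in Fast. These were immediate early genes, NRF2 targets and glutathione genes, integrins and focal adhesion genes, ERK feedback genes and heat shock chaperones. The majority were called higher for the complement components, the myeloid markers, the genes of NF-kB and its feedback, the matrix glycoproteins, the chemokines, the adipogenic genes and the collagens. The majority was lost for the matrix glycoproteins, adipogenic genes and collagens when some libraries were left out or with limma on log2(FPKM + 1), and for the ERK feedback genes with library size alone. The collagens also lost it when 1 CPM was required in 3 libraries (12 of 24) or with the 6 samples alone (11 of 25).

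**Figure D2:**
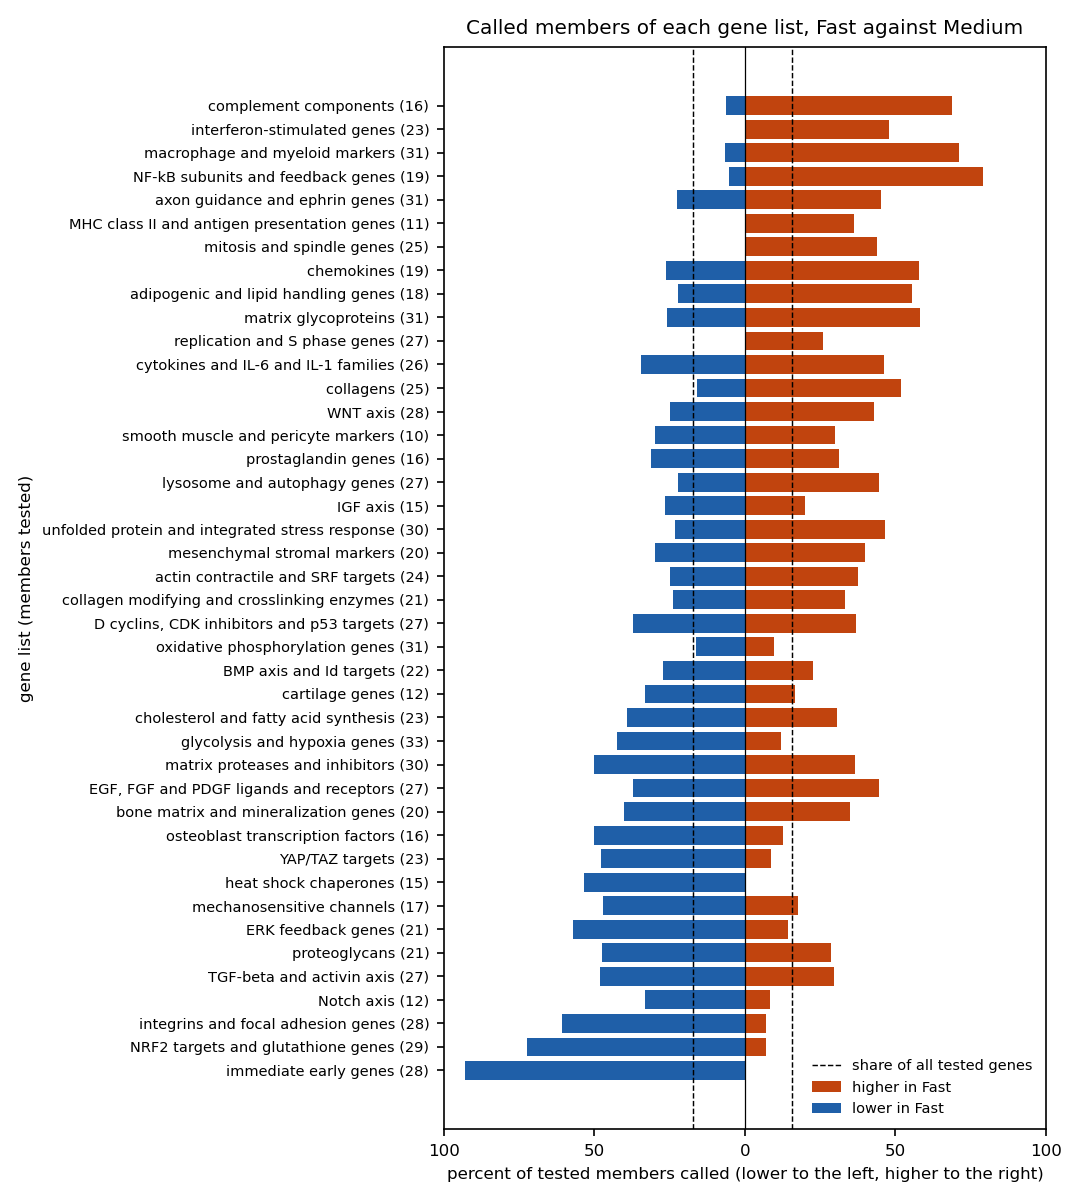
Percent of tested members called higher (orange, to the right) or lower (blue, to the left) in Fast for each list with at least 10 tested members, ordered by the median log2 difference; numbers in brackets are the members tested and dashed lines the shares over all tested genes. Immediate early genes stand at the bottom with 26 of 28 members lower, and complement components at the top with 11 of 16 higher.

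Among single genes, the largest rise with low spread was that of C6, a component of the membrane attack complex of complement, at 18.8, 17.6 and 17.4 CPM in the Fast libraries and 1.36, 1.09 and 1.36 CPM in the Medium libraries. No Medium library came near the lowest Fast library, and the log2 difference was 3.81 ± 0.18 (SE, edgeR adjusted p = 3.45e-10). Akr1c14, a steroid-converting aldo-keto reductase, stood at 92.3 ± 1.95 CPM in Fast against 14.2 ± 1.5 in Medium (SD, n = 3), a difference of 2.70 ± 0.086 (SE, edgeR adjusted p = 6.25e-12). Plagl1, an imprinted zinc finger transcription factor, Chi3l1, a secreted chitinase-like protein, Rrad, a small GTPase of the RAD family, and Lama1, the alpha 1 chain of laminin, rose by 2.53, 2.60, 2.39 and 2.34 log2 units. Casp6, an executioner caspase, and Fam50a headed the ranking by fold, yet their Fast libraries did not hold together. Casp6 was at 2.41, 8.57 and 8.46 CPM in the Fast libraries, all above the highest Medium value of 0.502. Fam50a was at 19.7, 1.44 and 19 CPM in the Fast libraries against at most 1.15 in Medium, so that 1 Fast library was close to Medium.

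Falls of similar size were seen for Klhl40, a Kelch protein known from skeletal muscle thin filaments, at 2.48, 3.69 and 2.98 CPM in the Fast libraries and 28.4, 29.3 and 33 CPM in the Medium libraries. The Fast libraries were all far below the lowest Medium library, with a log2 difference of -3.30 ± 0.12 (SE, edgeR adjusted p = 3.39e-11). Lmcd1, a LIM domain protein that acts as a transcriptional co-regulator, fell from 92.4 ± 2.05 to 14.7 ± 2.39 CPM (SD, n = 3), a difference of -2.65 ± 0.08 (SE, edgeR adjusted p = 3.82e-12). Anxa8, an annexin, Xcl1, a chemokine best known from T and NK cells, Dcx, a microtubule-binding protein of migrating neurons, and F13a1, the coagulation factor XIII A chain, fell by 3.46, 3.07, 2.89 and 2.11 log2 units. None of these genes overlapped between the groups in CPM, but the largest rises and falls were drawn only from genes without overlap. Over all tested genes, 44.6% did not overlap. Nfatc2, a calcium-responsive transcription factor, was at 1.3 ± 0.0762 CPM in Fast and 5.88 ± 0.0841 in Medium.

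Bone matrix and mineralization genes moved in both directions, with 7 of 20 tested members higher in Fast, 8 lower and a median of -0.155, which was -0.274 without Fast library 3. Ibsp, bone sialoprotein, which nucleates mineral, was at 317, 365 and 363 CPM in the Fast libraries and 138, 134 and 137 CPM in the Medium libraries. The gene, ENSRNOG00000002158, lies on chromosome 14 from 6801204 to 6813945 in the coordinates of the deposited table, whose build is not given in the sources used here. Every Fast library was well above every Medium library, 2.55-fold on average, and the log2 difference was 1.35 ± 0.049 (SE, edgeR adjusted p = 2.42e-11). Alpl, tissue-nonspecific alkaline phosphatase, which removes the mineralization inhibitor pyrophosphate, was at 288, 287 and 282 CPM in the Fast libraries and 122, 120.2 and 125 CPM in the Medium libraries. The groups stood far apart, by 1.22 ± 0.033 (SE, edgeR adjusted p = 1.11e-12). Ptn, the heparin-binding growth factor pleiotrophin, was at 25.2 ± 3.84 CPM in Fast and 4.69 ± 1.6 in Medium, a rise of 2.42 ± 0.2 log2 units. Col1a1, the main collagen chain of bone, rose by a smaller amount, 0.53 ± 0.029.

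Among the 8 members that fell, Ankh, a membrane transporter needed for pyrophosphate export, was at 238, 222 and 228 CPM in the Fast libraries and 909, 904 and 916 CPM in the Medium libraries. The Fast level was 0.252 times the Medium level, with no overlap, and the log2 difference was -1.99 ± 0.028 (SE, edgeR adjusted p = 1.48e-15). Enpp1, the ectoenzyme that makes pyrophosphate, was at 176, 169 and 163 CPM in the Fast libraries and 386, 409 and 399 CPM in the Medium libraries, again without overlap and with a log2 difference of -1.24 ± 0.034. Mgp, matrix Gla protein, an inhibitor of calcification, fell from 7069 ± 104 to 3579 ± 132 CPM. Slc20a1, a sodium-phosphate cotransporter, fell by 0.68 log2 units. Spp1, osteopontin, an abundant acidic protein of bone matrix, was at 15103, 14545 and 14464 CPM in the Fast libraries and 25828, 25646 and 25633 CPM in the Medium libraries. Its Fast libraries lay below all Medium libraries, with a difference of -0.81 ± 0.016 (SE, edgeR adjusted p = 6.46e-14).

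Osteoblast transcription factors were more often lower than higher: 2 of 16 were higher, 8 lower, and the median was -0.18. Runx2, the factor required for the osteoblast lineage, was at 102, 89.5 and 88.8 CPM in the Fast libraries and 99.7, 99.7 and 102 CPM in the Medium libraries. The groups overlapped and the difference of -0.11 ± 0.051 did not pass the test (edgeR adjusted p = 0.122). Without Fast library 1 it was -0.17 and did pass (edgeR adjusted p = 0.0037). Sp7, which acts downstream of Runx2, differed by -0.19 ± 0.062 (edgeR adjusted p = 0.0325). That call was lost without Fast library 1, Fast library 2, Medium library 1 or Medium library 2, with differences of -0.15, -0.18, -0.15 and -0.18. With all libraries kept it was also lost with upper quartile factors, library size alone, DESeq2, the replicate block and the 6 samples alone, at adjusted p-values of 0.0959, 0.169, 0.0613, 0.0518 and 0.059 (edgeR except where DESeq2 is named). Dlx5, a homeobox factor of osteoblasts, was at 11.5 ± 1.74 CPM in Fast and 5.06 ± 0.783 in Medium and rose by 1.18 ± 0.2. Mef2c, a factor of osteocytes, muscle and other lineages, and Tcf7, a nuclear partner of beta-catenin, fell by 0.95 and 0.77 log2 units.

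**Figure D3:**
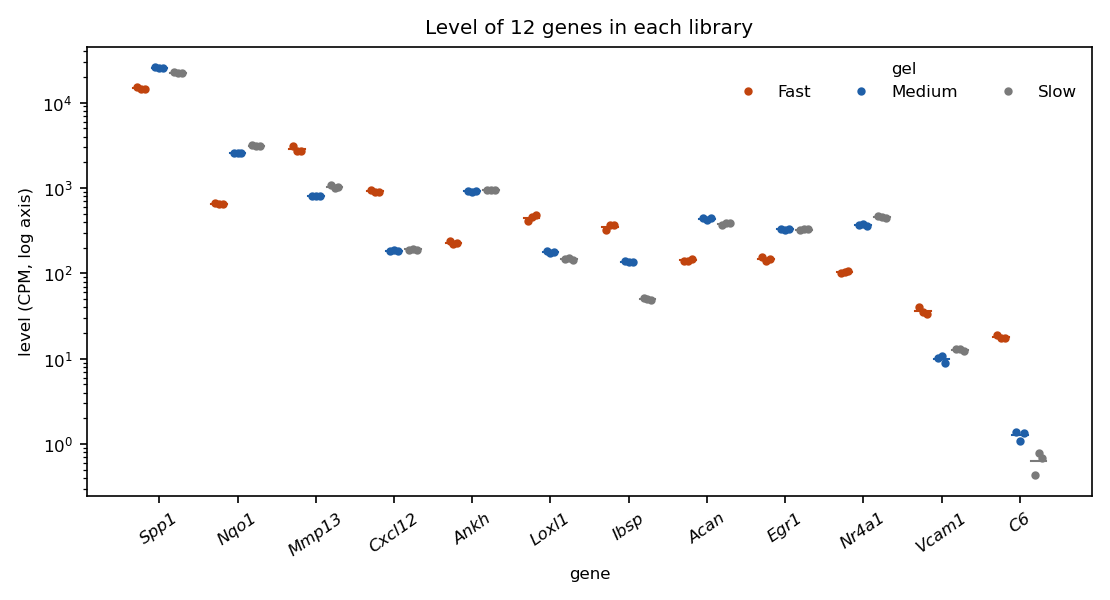
Level in CPM (log axis) of 12 genes in each library; points are libraries and short lines the mean of a group, with Fast in orange, Medium in blue and Slow in grey. For all 12 genes the 3 Fast points lie apart from the 3 Medium points, whereas the Medium and Slow points are close to each other for Cxcl12, Ankh and Egr1. The genes were picked after their values were seen.

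Collagens were more often higher than lower in Fast, with 13 of 25 tested chains higher, 4 lower and a median of 0.138. Col14a1, a fibril-associated collagen, was at 397, 393 and 401 CPM in the Fast libraries and 158, 152 and 156 CPM in the Medium libraries. Every Fast library was far above every Medium library, a difference of 1.35 ± 0.031 (SE, edgeR adjusted p = 2.04e-13). The fibril-forming Col3a1 rose by 0.19 ± 0.018 and the basement membrane collagen Col18a1 by 0.54 ± 0.05. Col1a2, the partner chain of Col1a1, was at 2744, 4719 and 2989 CPM in Fast and 2899, 3208 and 3699 CPM in Medium, with a spread within groups that was larger than the difference of 0.092 ± 0.15. Col7a1, the anchoring fibril collagen, was lower, with a log2 difference of -1.17 ± 0.071.

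Enzymes that modify and crosslink collagen split, with 7 of 21 higher and 5 lower. Upper quartile factors turned their median of -0.00734 to 0.0362 and library size alone turned it to 0.0627. Its sign also turned without Fast library 1 (0.022), Fast library 2 (0.00719) or Medium library 2 (0.0049). Loxl1, a lysyl oxidase-like enzyme needed for elastic fibres, was at 412, 453 and 476 CPM in the Fast libraries and 184, 175 and 179.9 CPM in the Medium libraries. It rose by 1.32 ± 0.048 (SE, edgeR adjusted p = 2.42e-11), with no overlap. Lox, the lysyl oxidase that crosslinks collagen and elastin, rose by 0.38 ± 0.033, and Adamts2, which cleaves the N-propeptide of procollagen, by 1.14 ± 0.086. Plod3, a lysyl hydroxylase, fell by 0.60.

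Matrix glycoproteins were more often higher in Fast, 18 of 31 against 8 lower, with a median of 0.215. Fn1, fibronectin, was at 38772, 36995 and 37512 CPM in the Fast libraries and 52736, 52756 and 53152 CPM in the Medium libraries. All Fast libraries were below all Medium libraries, by -0.49 ± 0.015 (SE, edgeR adjusted p = 3.27e-12). Thbs1, thrombospondin-1, a matricellular protein that can activate latent TGF-beta, and Tnc, tenascin-C, fell by 0.93 and 0.69 log2 units. Higher in Fast was Postn, periostin, at 8196 ± 329 CPM against 5291 ± 16, a rise of 0.63 ± 0.024. Sned1, a little-studied secreted matrix protein, was at 143, 143 and 150.4 CPM in the Fast libraries and 25.4, 25.3 and 20.1 CPM in the Medium libraries. Its rise of 2.62 ± 0.082 (SE, edgeR adjusted p = 4.89e-12) was the largest among the glycoproteins tested. Spon1, F-spondin, rose by 2.21 ± 0.098.

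Proteoglycans leaned the other way: 6 of 21 were higher, 10 lower and the median was -0.245. Acan, aggrecan, the large proteoglycan of cartilage, was at 139, 141 and 147 CPM in the Fast libraries and 446, 418 and 445 CPM in the Medium libraries. Its Fast libraries held 0.326 times the Medium level, with a difference of -1.62 ± 0.036 (SE, edgeR adjusted p = 1.61e-13). Sdc1, the cell-surface syndecan-1, and Cspg4, the NG2 proteoglycan of pericytes and stromal progenitors, fell by 1.25 and 1.18. Cd44, the hyaluronan receptor, fell by 0.65.

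Of the matrix proteases and their inhibitors, 11 of 30 were higher, 15 lower and the median was -0.114. Mmp13, collagenase-3, which degrades fibrillar collagen in bone and cartilage, was at 3093, 2716 and 2713 CPM in the Fast libraries and 811, 812 and 808 CPM in the Medium libraries. The Medium libraries lay close together and every Fast library was far above them, a rise of 1.81 ± 0.044 (SE, edgeR adjusted p = 3.51e-13). Mmp14, the membrane-anchored collagenase, rose by 0.54 ± 0.021. Plaur, the urokinase receptor, fell by 0.78 log2 units, Mmp9, gelatinase B, by 0.62 and Timp1, a tissue inhibitor of metalloproteinases, by 0.43. Mmp3, stromelysin-1, was lower, with a log2 difference of -0.24 ± 0.036.

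Integrins and focal adhesion genes were mostly lower in Fast: 17 of 28 tested members fell, 2 rose and the median was -0.343. Itga7, a laminin-binding integrin chain, was at 14.2, 12.5 and 13.5 CPM in the Fast libraries and 43.3, 46.6 and 48 CPM in the Medium libraries. The groups were well apart and the difference was -1.78 ± 0.07 (SE, edgeR adjusted p = 6.01e-11). Itga8, a chain that binds RGD-containing ligands such as fibronectin, fell by 1.46, Itgb3, the beta 3 chain of the vitronectin receptor, by 0.86 and Itga5, the alpha chain of the fibronectin receptor, by 0.41. In the other direction, Itga11, a collagen receptor of fibroblasts and stromal cells, was at 587, 567 and 589 CPM in the Fast libraries and 349, 372 and 362 CPM in the Medium libraries. It rose by 0.69 ± 0.035 (SE, edgeR adjusted p = 1.17e-09). Itgb1, the common beta 1 chain, was at 931 ± 26.7 CPM in Fast and 972 ± 5.73 in Medium, and its difference of -0.061 ± 0.024 did not pass the test (edgeR adjusted p = 0.0707). Without Fast library 1 it was -0.085 and passed (edgeR adjusted p = 0.00122).

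YAP and TAZ are co-activators that enter the nucleus under mechanical tension. Of 23 of their known targets, 11 were lower in Fast, 2 higher, and the median was -0.194. Ctgf, connective tissue growth factor, was at 1092, 1092 and 1099.8 CPM in the Fast libraries and 1531, 1536 and 1548 CPM in the Medium libraries. It was lower in each Fast library, by -0.49 ± 0.02 (SE, edgeR adjusted p = 9.17e-11). Cyr61, a related matricellular protein, fell by 0.33 and Nt5e, the surface enzyme CD73 that is also a stromal marker, by 1.25. Ccdc80, an extracellular matrix protein, went up by 0.65 ± 0.029.

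Actin-based contractile genes and targets of SRF, the serum response factor, had 9 of 24 members higher and 6 lower. Their median of -0.000504 changed sign under both upper quartile factors (0.043) and library size alone (0.0695), and it lay between -0.00516 and 0.0289 when 1 library was left out. Myh9 is counted among the members at the low level given above. Acta2, smooth muscle actin, was at 132 ± 3.95 CPM in Fast and 98.3 ± 1.81 in Medium, a rise of 0.43 ± 0.039, and Tpm1, tropomyosin 1, rose by 0.52 ± 0.045. Cnn1, calponin 1, and Srf itself fell by 0.61 and 0.42 log2 units. The genes of vimentin (Vim) and lamin A/C (Lmna), filaments of the cytoplasm and of the nuclear envelope, fell by 0.41 and 0.51.

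Immediate early genes were almost all lower in Fast. These genes are transcribed within minutes of a signal, without new protein synthesis, and code for transcription factors such as EGR1, FOS and NR4A1. Of 28 tested, 26 were lower in Fast, none was higher, and the median difference was -0.887. Nr4a1, an orphan nuclear receptor on chromosome 7 (142905758 to 142920216 in the table's coordinates), was at 102, 105 and 107 CPM in the Fast libraries and 364, 373 and 356 CPM in the Medium libraries. The Fast level was 0.287 times the Medium level, without overlap, and the difference was -1.80 ± 0.034 (SE, edgeR adjusted p = 2.86e-14). Egr1, a zinc finger factor, was at 153, 140.1 and 148 CPM in the Fast libraries and 331, 322 and 328 CPM in the Medium libraries. Fast was lower in every library, by -1.15 ± 0.035 (SE, edgeR adjusted p = 4.41e-12). Fos, a subunit of AP-1, was at 12.1 ± 1.39 CPM in Fast and 22 ± 1.03 in Medium (SD, n = 3), a fall of 0.86 log2 units. Nr4a2, Egr3, Ier3 and Btg2 fell by 1.33, 1.51, 1.30 and 1.33. Further members, named after their values were seen, were Nr4a3 (-1.74 ± 0.098), Klf2 (-1.34 ± 0.081), Klf4 (-1.24 ± 0.07), Junb (-0.69 ± 0.056) and Jun (-0.24 ± 0.063).

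Egr1 is the classical target of SRF, which binds CArG boxes in its promoter. Egr1 was picked as this known target, and most of the immediate early genes had no match, as given below. Shown is the window of 250 bases before to 50 after the start of rat Egr1. This window lies at chr18:26736828-26737127 on the plus strand of GRCr8 (RefSeq). Capitals mark its 2 matches to the CArG box.
Egr1: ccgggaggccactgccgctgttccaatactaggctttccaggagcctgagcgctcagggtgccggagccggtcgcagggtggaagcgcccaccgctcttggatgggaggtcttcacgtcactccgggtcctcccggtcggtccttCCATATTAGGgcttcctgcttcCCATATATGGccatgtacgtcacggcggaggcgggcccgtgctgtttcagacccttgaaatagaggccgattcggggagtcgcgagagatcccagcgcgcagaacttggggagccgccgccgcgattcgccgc
Both strands were searched for the CArG box and for TGACGTCA, the site bound by CREB, both chosen after the expression values were seen. A CArG box was present in 548 of 33469 RefSeq promoter windows of this length (1.64%) and in 4 of the 17 immediate early genes with a window, Egr1, Egr2, Klf6 and Zfp36. TGACGTCA was present in 612 of all windows (1.83%) and in 3 of these 17, Jund, Maff and Btg2. The shares over all windows count every window, also those of untested genes, whereas a list gene entered with its first window only. A match describes the letters of the window and does not show that a factor binds there.

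ERK feedback genes, which are induced by the ERK kinase pathway and damp it, were lower for 12 of 21 members and higher for 3, with a median of -0.222. Dusp6, a phosphatase of ERK, was at 67.8, 72.5 and 69.4 CPM in the Fast libraries and 174, 179 and 176 CPM in the Medium libraries. All Fast libraries were far below all Medium libraries, and the difference was -1.33 ± 0.041 (SE, edgeR adjusted p = 4.08e-12). Dusp5, a nuclear ERK phosphatase, fell by 1.49, Spry4, a Sprouty inhibitor of receptor tyrosine kinase signalling, by 1.13 and Phlda1, a pleckstrin-homology protein induced by growth factors, by 1.55.

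**Figure D4:**
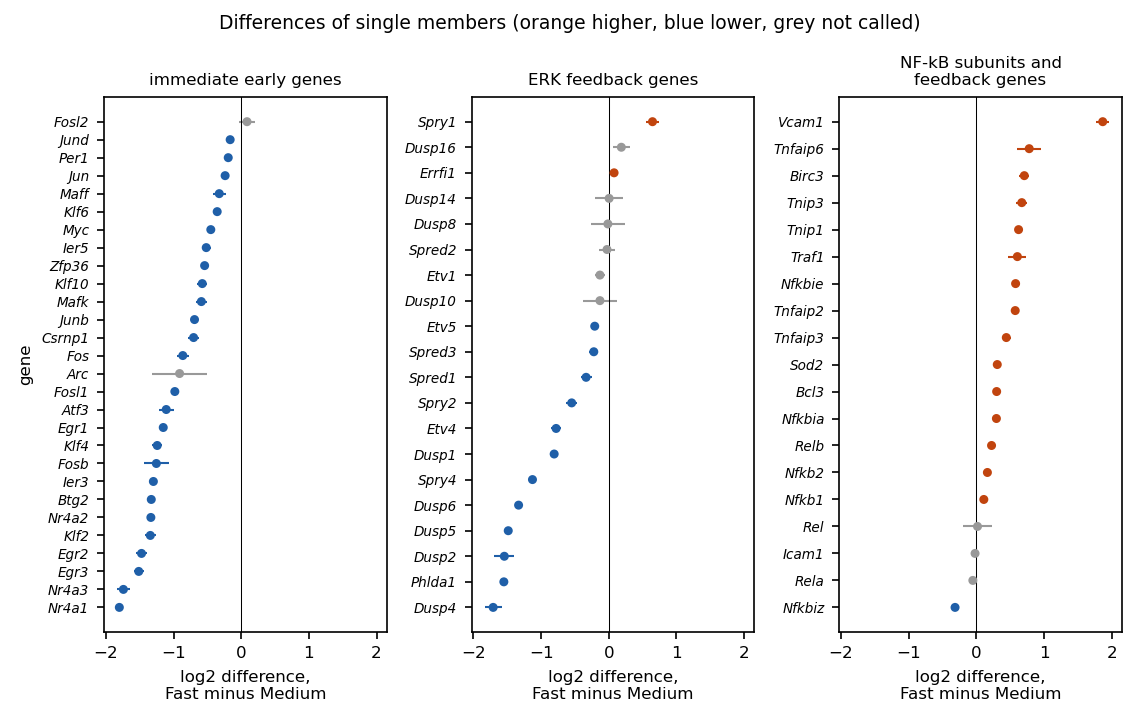
Log2 difference, Fast minus Medium (x axis), with its SE for the tested members of 3 lists (1 ERK feedback gene is not shown); orange members are called higher in Fast, blue lower and grey not called. Nearly all immediate early genes lie to the left of 0, with 26 of 28 called lower, while 15 of 19 genes of NF-kB and its feedback lie to the right and are called higher.

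Ligands and receptors of the EGF, FGF and PDGF families moved apart, with 12 of 27 members higher, 10 lower and a median of -0.12, which was -0.0723 without Medium library 2. Among ligands, Fgf1, an acidic fibroblast growth factor, was at 12.1, 10.3 and 14.4 CPM in the Fast libraries and 49.6, 49.4 and 48 CPM in the Medium libraries. It fell by 2.001 log2 units (edgeR adjusted p = 3.12e-10). Nrg1, neuregulin 1, a ligand of ERBB receptors, and Pdgfa, the A chain of PDGF, fell by 1.91 and 1.55. Vegfa, the main angiogenic factor, went from 2135 ± 19.8 CPM in Medium to 1394 ± 71.4 in Fast. Among receptors, Pdgfra, the receptor that binds PDGF-AA, was at 819, 779.7 and 806 CPM in the Fast libraries and 385, 401 and 408 CPM in the Medium libraries. The Fast libraries were 2.01-fold above the Medium ones on average, with a rise of 1.01 ± 0.03 (SE, edgeR adjusted p = 3.34e-12). Pdgfrb rose by 0.75 ± 0.027, so that the ligand Pdgfa was lower and both receptors higher in Fast.

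In the insulin-like growth factor axis, 3 of 15 members were higher and 4 lower, and leaving out Fast library 1 raised the higher members to 6. Igf1, the secreted growth factor, was at 10.8 ± 2.48 CPM in Fast and 3.91 ± 0.852 in Medium, a rise of 1.47 ± 0.21. Igfbp3, which binds IGF in serum and tissue, fell by 0.73.

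Genes of the TGF-beta and activin axis were lower for 13 of 27 members and higher for 8, with a median of -0.249. Inhba, the subunit of activin A, was at 185, 189.8 and 202 CPM in the Fast libraries and 672, 646 and 653 CPM in the Medium libraries. It fell by 1.77 log2 units, with no overlap (edgeR adjusted p = 2.6e-14). Tgfb1 and Tgfb2, TGF-beta ligands, fell by 0.25 and 0.67. Ltbp2, a latent TGF-beta binding protein of microfibrils, and Tgfbr3, the co-receptor betaglycan, rose by 0.69 ± 0.024 and 0.74 ± 0.052.

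The BMP axis was mixed, with 5 of 22 higher and 6 lower. Its median of -0.0624 became 0.00766 with library size alone and lay between -0.122 and -0.0371 when 1 library was left out, and the count of higher members dropped to 3 without Medium library 1 or without Medium library 3. Bmp2, a bone-inducing ligand, was at 21.6, 19.3 and 21 CPM in the Fast libraries and 14.3, 14.7 and 13.1 CPM in the Medium libraries. The groups did not overlap and the rise was 0.56 ± 0.079. Nog, the BMP antagonist noggin, rose by 0.88 ± 0.2, whereas Grem1, the antagonist gremlin 1, showed no called difference at 1979 ± 59.1 CPM in Fast and 2019 ± 30.4 in Medium, though without Fast library 1 a difference of -0.054 passed (edgeR adjusted p = 0.0199).

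WNT pathway genes were higher for 12 of 28 and lower for 7, with a median of 0.135, which was 0.237 without Fast library 1. Sfrp1, a secreted antagonist that binds WNT ligands, was at 164, 158 and 161 CPM in the Fast libraries and 47, 43.9 and 44.5 CPM in the Medium libraries. The Fast libraries were 3.56-fold above the Medium ones on average, a rise of 1.83 ± 0.055 (SE, edgeR adjusted p = 3.34e-12). Sfrp2, a related protein, and Wisp2, a matricellular protein of the CCN family, rose by 1.24 ± 0.11 and 1.68 ± 0.067. Axin2, a feedback target of beta-catenin, was at 11.5, 12.9 and 12 CPM in the Fast libraries and 21.6, 22.1 and 20.7 CPM in the Medium libraries. It was lower in Fast, by -0.82 ± 0.075. Wnt5a, a ligand that mostly signals without beta-catenin, and Nkd2, an inhibitor of Dishevelled, fell by 0.42 and 0.72. In the Notch axis 1 of 12 members was higher and 4 were lower.

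Prostaglandin genes were split evenly, 5 of 16 in each direction. Ptgs2, the inducible cyclooxygenase COX-2, was at 528, 483 and 473 CPM in the Fast libraries and 1320.5, 1329 and 1308 CPM in the Medium libraries. It fell by 1.42 log2 units without overlap (edgeR adjusted p = 3.44e-13). Ptgs1, the constitutive cyclooxygenase, fell by 0.93. Ptges, the synthase of prostaglandin E2, and Ptger3, a receptor of it, rose by 0.33 ± 0.058 and 1.47 ± 0.18.

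Cytokines of the IL-6 and IL-1 families and their receptors were higher for 12 of 26 and lower for 9, with a median of 0.175. Without Fast library 1 the median was 0.105, with 10 higher and 10 lower, and without Medium library 3 there were 8 higher and 9 lower. Il11, a ligand of the IL-6 family, was at 6.06, 6.76 and 5.89 CPM in the Fast libraries and 24.6, 24.4 and 25.7 CPM in the Medium libraries. The Fast level was 0.251 times the Medium level, a fall of 1.99 log2 units (edgeR adjusted p = 1e-10). Lif, leukaemia inhibitory factor, Clcf1, a ligand of the CNTF receptor, and Il6 fell by 1.24, 1.55 and 0.73. Il6st, gp130, the signalling receptor that these ligands share, was at 453, 442 and 441 CPM in the Fast libraries and 226, 223 and 226 CPM in the Medium libraries. The rise was 0.99 ± 0.029 (SE, edgeR adjusted p = 3.27e-12). Lifr, the chain of the LIF receptor that pairs with gp130, named after its values were seen, rose by 1.43 ± 0.14. Il1rn, the antagonist of the IL-1 receptor, fell by 1.25.

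Chemokines were higher for 11 of 19 and lower for 5, with a median of 0.283. Cxcl12, the marrow chemokine that binds CXCR4, was at 949, 906 and 899 CPM in the Fast libraries and 182, 187 and 185 CPM in the Medium libraries. The gene, ENSRNOG00000013589, lies on chromosome 4 from 149261044 to 149273891 in the table's coordinates. Fast libraries stood at 4.97 times the Medium level on average, a rise of 2.31 ± 0.031 (SE, edgeR adjusted p = 9.94e-16). Cxcl13, a B cell attractant, was at 4575 ± 229 CPM in Fast and 2522 ± 13.2 in Medium, a rise of 0.86 ± 0.036. Ccl20, the ligand of CCR6, Cxcl6, a neutrophil attractant, and Ccl2, a monocyte attractant, rose by 1.51 ± 0.064, 1.51 ± 0.062 and 0.61 ± 0.034.

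Cxcl14 and Ccl6 were among the chemokines that fell. Cxcl14, a chemokine expressed in many epithelia and stromal tissues, was at 287, 303 and 308 CPM in the Fast libraries and 1106, 1135 and 1125 CPM in the Medium libraries. It was lower, with a log2 difference of -1.91 ± 0.028 (SE, edgeR adjusted p = 1.71e-15). Ccl6, a chemokine known from rodents, fell by 1.29. Cxcl1, a neutrophil attractant, was at 201 ± 6.35 CPM in Fast and 198 ± 2.09 in Medium, with overlapping libraries and a difference of 0.018 ± 0.034 that did not pass the test (edgeR adjusted p = 0.734).

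NF-kB is a family of transcription factors held in the cytoplasm by inhibitors that NF-kB itself induces. Of 19 tested subunits and feedback genes, 15 were higher in Fast, 1 was lower and the median was 0.308. Nfkbia, the inhibitor IkB-alpha, was at 107, 106 and 109 CPM in the Fast libraries and 88.1, 89.1 and 85.5 CPM in the Medium libraries. All Fast libraries were above all Medium libraries, by 0.30 ± 0.04 (SE, edgeR adjusted p = 4e-05). Tnfaip3, the ubiquitin-editing inhibitor A20, Tnip1, its binding partner, and Birc3, an inhibitor of apoptosis, rose by 0.44 ± 0.067, 0.62 ± 0.033 and 0.71 ± 0.071. Vcam1, an adhesion molecule of stromal and endothelial cells, was at 39.9, 35.4 and 33 CPM in the Fast libraries and 10.2, 10.7 and 8.82 CPM in the Medium libraries. It rose by 1.87 ± 0.095 (SE, edgeR adjusted p = 1.03e-09), the largest rise in this list.

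The promoter windows of an inhibitor and of an adhesion gene from this list are shown because both rose and both hold a match to the NF-kB site, in capitals. Nfkbia lies on the minus strand at chr6:78597023-78597322 and Vcam1 on the minus strand at chr2:206742734-206743033 (RefSeq, GRCr8), and each is written 5′ to 3′ of the gene.
Nfkbia: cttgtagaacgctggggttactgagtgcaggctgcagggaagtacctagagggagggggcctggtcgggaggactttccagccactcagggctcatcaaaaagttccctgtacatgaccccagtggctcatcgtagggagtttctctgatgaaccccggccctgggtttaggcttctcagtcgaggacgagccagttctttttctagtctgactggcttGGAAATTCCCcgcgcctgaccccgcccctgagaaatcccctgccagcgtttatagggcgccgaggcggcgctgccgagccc
Vcam1: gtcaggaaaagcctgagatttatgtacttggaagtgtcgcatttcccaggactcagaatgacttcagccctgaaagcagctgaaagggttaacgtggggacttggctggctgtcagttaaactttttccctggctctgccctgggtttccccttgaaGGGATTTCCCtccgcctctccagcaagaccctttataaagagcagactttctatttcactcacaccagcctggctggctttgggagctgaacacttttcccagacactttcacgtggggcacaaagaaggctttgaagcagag
The NF-kB site, searched on both strands and chosen after the values were seen, was present in 1400 of 33469 windows (4.18%), in 10 of the 17 genes of this list with a window and in 1 of 17 immediate early genes. Known NF-kB targets are in the list by construction, so its share was read as a description. The windows were counted as for the CArG box.

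Interferon-stimulated genes were higher for 11 of 23 and lower for none, with a median of 0.432. Gbp2, an interferon-induced GTPase, was at 21.8, 20.1 and 20.4 CPM in the Fast libraries and 9.35, 7.33 and 10.5 CPM in the Medium libraries. It rose by 1.20 ± 0.13. Ifit2, an antiviral RNA-binding protein, rose by 1.11 ± 0.14. Isg15, a ubiquitin-like protein, overlapped between the groups, at 4.24 ± 0.843 and 3.5 ± 0.762 CPM.

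NRF2 is a transcription factor that induces genes of detoxification and glutathione metabolism. Of 29 tested NRF2 targets and glutathione genes, 21 were lower in Fast, 2 were higher, and the median was -0.398. Nqo1, a quinone reductase and standard readout of NRF2 on chromosome 19 (38422164 to 38437180 in the table's coordinates), was at 662, 656 and 641 CPM in the Fast libraries and 2596, 2600.4 and 2582 CPM in the Medium libraries. The Fast level was 0.252 times the Medium level and no library overlapped, with a difference of -1.99 ± 0.023 (SE, edgeR adjusted p = 2.16e-16). Akr1b8, an aldo-keto reductase, Txnrd1, thioredoxin reductase 1, and Gstp1, a glutathione S-transferase, fell by 1.32, 1.01 and 0.97. Hmox1, haem oxygenase 1, fell by a smaller 0.27. Gclm, the modifier subunit of glutamate-cysteine ligase, did not pass the test, at 10.8 ± 1.13 CPM in Fast and 11.7 ± 1.34 in Medium. Gpx3, a secreted glutathione peroxidase, rose by 1.02 ± 0.036. Nfe2l2, the gene of NRF2, was named after its values were seen and differed by 0.079 ± 0.041, which did not pass the test.

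Glycolysis and hypoxia genes were lower for 14 of 33 and higher for 4, with a median of -0.101. Slc2a1, the glucose transporter GLUT1, was at 287, 304 and 299 CPM in the Fast libraries and 452, 444 and 449.8 CPM in the Medium libraries. Fast was lower in all libraries, by -0.60 ± 0.029 (SE, edgeR adjusted p = 5.48e-10). Pfkp, a phosphofructokinase, Hk2, hexokinase 2, and Ldha, lactate dehydrogenase A, fell by 0.72, 0.36 and 0.17. Oxidative phosphorylation genes were near or under the background, with 3 of 31 higher and 5 lower (25.8% called), and the 3 higher calls fell to 0 without Fast library 2, Medium library 2 or Medium library 3 and to 1 without Medium library 1. The lower calls were 3 without Medium library 1 or Medium library 2.

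Among heat shock chaperones, 8 of 15 were lower and none higher, with Hspa8 and Hsp90aa1 counted at the low levels given above. Hspb8, a small heat shock protein, fell by 1.06 and Hspa4l, an HSP110 family member, by 1.45. Genes of the unfolded protein and integrated stress responses had 14 of 30 members higher and 7 lower, and the higher count was 9 without Fast library 2 and 9 without Medium library 1. Calr, the calcium-binding chaperone calreticulin, was at 1342, 1415 and 1407 CPM in the Fast libraries and 1004, 971 and 989 CPM in the Medium libraries. It rose by 0.49 ± 0.028. Pdia4, a protein disulfide isomerase, and Hspa5, the chaperone BiP, rose by 0.44 ± 0.034 and 0.20 ± 0.031, while Atf4, the factor of the integrated stress response, fell by 0.26.

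Mitosis and replication genes were higher in Fast where they were called. Of 25 mitosis and spindle genes, 11 were higher and none lower, with a median of 0.283, and 6 were higher without Fast library 1. Mki67, a marker of cycling cells, was at 67.4, 62.9 and 62.7 CPM in the Fast libraries and 47.9, 44.5 and 46.7 CPM in the Medium libraries. It rose by 0.47 ± 0.054 (SE, edgeR adjusted p = 7.96e-06). Top2a, topoisomerase II alpha, and Cdk1, the mitotic kinase, rose by 0.28 ± 0.068 and 0.31 ± 0.069. Of 27 replication and S phase genes, 7 were higher and none lower, a share of 25.9% that is under the background, and the count was 4 without Medium library 1 and 3 without Medium library 3. Of 27 D cyclins, CDK inhibitors and p53 targets, 10 were higher and 10 lower. Cdkn1a, the CDK inhibitor p21, fell by 0.37 and Mdm2, which like Cdkn1a is induced by p53, by 0.38.

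Adipogenic and lipid-handling genes were higher for 10 of 18 and lower for 4, with a median of 0.246. Apoe, apolipoprotein E, which macrophages also make, was at 1588, 1918 and 1915 CPM in the Fast libraries and 1068, 1055 and 1043 CPM in the Medium libraries. All Fast libraries were above all Medium libraries, by 0.78 ± 0.053 (SE, edgeR adjusted p = 3.11e-08). Lpl, lipoprotein lipase, rose by 0.38 ± 0.063, and Plin2, which coats lipid droplets, fell by 0.96. Pparg, the master regulator of fat cells, was at 2.58 ± 0.239 CPM in Fast and 1.43 ± 0.0692 in Medium.

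Of 12 cartilage genes, 2 were higher and 4 lower. Sox9, the transcription factor of chondrocytes, was at 54.2, 53.9 and 60.4 CPM in the Fast libraries and 137, 134 and 151 CPM in the Medium libraries. Each Fast library was below each Medium library, with a log2 difference of -1.33 ± 0.057 (SE, edgeR adjusted p = 1.55e-10). Sox6, its partner, fell by 1.42 and Prg4, lubricin, by 0.67, beside the fall of Acan given above. Cholesterol and fatty acid synthesis genes were higher for 7 of 23 and lower for 9, among them Insig1, a feedback regulator of sterol synthesis, which fell by 0.65.

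Complement components had the highest median of the lists with at least 10 tested members, 0.793, with 11 of 16 higher and 1 lower. C1s, a protease of the classical pathway, was at 572, 586 and 585 CPM in the Fast libraries and 258, 259 and 244 CPM in the Medium libraries. It rose by 1.19 ± 0.039 (SE, edgeR adjusted p = 8.5e-12). Serping1, the inhibitor of that protease, and C3, the central component, rose by 1.09 ± 0.038 and 0.69 ± 0.038. C7, which follows C6 in the membrane attack complex, was at 3.06, 4.19 and 3.05 CPM in the Fast libraries and 0.136, 0.0679 and 0.574 CPM in the Medium libraries. The groups did not overlap, and counts were too few in Medium for a stable fold. The number lower was 2 without Fast library 1 or Medium library 1.

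Macrophage and myeloid markers were higher for 22 of 31 and lower for 2, with a median of 0.405. Lyz2, lysozyme, was at 989.8, 933 and 918 CPM in the Fast libraries and 404, 392 and 398 CPM in the Medium libraries. It rose by 1.25 ± 0.034 (SE, edgeR adjusted p = 1.11e-12). Adgre1, the macrophage protein F4/80, was at 637, 605 and 603 CPM in the Fast libraries and 394, 412 and 413 CPM in the Medium libraries. It rose by 0.60 ± 0.031. Siglec1, the macrophage sialoadhesin, Clec4a1, a lectin receptor, and Trem2, a lipid receptor of macrophages, rose by 2.41 ± 0.19, 2.42 ± 0.2 and 1.71 ± 0.094. Cd68, a lysosomal protein of macrophages, and Csf1r, the receptor of M-CSF, rose by the smaller amounts 0.33 ± 0.052 and 0.26 ± 0.049. Marco, Cx3cr1 and Ccr2, other genes of this list, were at or near 0 in all 6 libraries.

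Not all markers of white cells moved. Ptprc, the leukocyte protein CD45, was at 36.6, 35.2 and 34.8 CPM in the Fast libraries and 30.5, 35.4 and 30.5 CPM in the Medium libraries, with overlap and a difference of 0.14 ± 0.07 that did not pass the test. Without Medium library 2 it was 0.22 and passed (edgeR adjusted p = 0.0283). Cd14, a co-receptor of lipopolysaccharide, and Ccr1, a chemokine receptor, were the members that fell, by 0.32 and 1.22. Ptprc, Cd14 and Ccr1 were named after their values were seen. Summed over 34 markers the lowest Fast library, at 4046 CPM, was above the highest Medium library, at 2996 CPM. Much of that gap came from Lyz2, given above. Itgb2 and Laptm5 overlapped between the groups. Itgam, not called, was slightly lower in every Fast library. These members too were named after their values were seen. The part of these cells in the differences of complement, chemokine, NF-kB, interferon and lipid genes, which macrophages also express, was not tested.

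Most other cell types gave few testable markers, though 9 of 12 osteoclast markers and 10 of 11 smooth muscle and pericyte markers were tested. Osteoclast markers were near the background, with 1 of 9 higher and 2 lower, and the higher call was lost without Fast library 1, Fast library 3, Medium library 2 or Medium library 3. Acp5, tartrate-resistant acid phosphatase, and Ctsk, cathepsin K, did not pass the test, at 77.7 ± 1.23 and 316 ± 8.74 CPM in Fast and 80.4 ± 2.29 and 305 ± 0.583 in Medium. Neutrophil and mast cell markers summed to between 28.81 and 29.34 CPM in Fast and between 13.57 and 15.27 CPM in Medium. Of the 4 tested, 3 were higher in Fast and none lower. The higher count was 2 without Fast library 1, Fast library 2, Medium library 1 or Medium library 3. Most of the sum came from Camp, Csf3r and Kit, each higher in every Fast library than in any Medium library. S100a9, Elane and Fcer1a were at or near 0. Of smooth muscle and pericyte markers 3 of 10 were higher and 3 lower, of glial and neuronal markers 1 of 5 higher and 2 lower, of endothelial markers 1 of 6 higher and of erythroid markers 1 of 2 higher. The endothelial call was lost with DESeq2, the replicate block or no filter beyond 1 count and without Fast library 2, Medium library 1 or Medium library 3, and the higher glial call with limma on log2(FPKM + 1) and without Fast library 1, Fast library 3, Medium library 2 or Medium library 3. Lymphocyte markers were higher for 3 of 5 and lower for 1, and 1 was higher with DESeq2 or when Fast library 1, 2 or 3 or Medium library 1 or 3 was left out. Of the MHC class II and antigen presentation genes, 4 of 11 were higher and none lower (36.4% called). The class II genes Cd74, RT1-Da, RT1-Ba, RT1-Db1 and RT1-DMa had counts too low to test, with Cd74 at most at 0.95 CPM in the 6 libraries. RT1-Bb and RT1-DMb, also class II genes, overlapped between the groups. B2m and Psmb9, other members of the list, were higher in every Fast library than in any Medium library. The genes of this list were named after their values were seen.

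The step from Fast to Medium was set beside the step from Medium to Slow. The 2 steps share the Medium libraries, so their values are given side by side. Between Medium and Slow 1485 genes (10.3%) differed by the same test, against the 4750 between Fast and Medium. A direct test of whether the 2 steps differ in a gene passed for 1741 genes (12.1%). No measure of the relaxation times is used here, so the steps may cover unequal distances in rate.

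Some genes differed mainly between Fast and Medium. Cxcl12 rose by 2.31 log2 units from Medium to Fast and was at 188, 195 and 189 CPM in the Slow libraries, -0.044 ± 0.032 apart from Medium. The difference between its steps was 2.36 ± 0.056 (edgeR adjusted p = 1.74e-12). Ankh was at 943 ± 8.81 CPM in Slow, and its Medium minus Slow step of -0.053 ± 0.027 did not pass the test, with a difference between steps of -1.94 ± 0.046 (edgeR adjusted p = 1.74e-12). Egr1, at 326 ± 5.18 CPM in Slow, had a Medium minus Slow step of 0.0055 ± 0.034 and a difference between steps of -1.16 ± 0.059. Nqo1 had a Medium minus Slow step of -0.26 ± 0.022 in the same direction as the first, and the steps differed by -1.73 ± 0.037 (edgeR adjusted p = 1.28e-12).

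Others moved in the same direction over both steps. Ibsp was at 51, 50.5 and 48.8 CPM in the Slow libraries, with steps of 1.35 ± 0.049 for Fast minus Medium and 1.45 ± 0.055 for Medium minus Slow. The difference between its steps was -0.092 ± 0.089, which did not pass the test (edgeR adjusted p = 0.594). Ptgs2, at 3233 ± 56.7 CPM in Slow, had steps of -1.42 ± 0.034 and -1.29 ± 0.033, and here too the difference of -0.12 ± 0.057 did not pass. Siglec1 had steps of 2.41 ± 0.19 and 2.02 ± 0.26. Inhba had steps of -1.77 ± 0.033 and -0.90 ± 0.031, of which the first was larger (edgeR adjusted p = 3.17e-08).

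A further set turned around at Medium. Ccl20 fell from 107 ± 4.64 CPM in Fast to 37.4 ± 3.2 CPM in Medium and stood at 88.1 ± 5.33 CPM in Slow, and its steps of 1.51 ± 0.064 and -1.24 ± 0.065 had opposite signs. Bmp2 was at 20.6 ± 1.17, 14 ± 0.85 and 25.5 ± 0.626 CPM in the same order, lowest in Medium, with steps of 0.56 ± 0.079 and -0.86 ± 0.079. Hspa5 was also lowest in Medium, with steps of 0.20 ± 0.031 and -0.49 ± 0.031. Klhl40 and Sox9 were highest in Medium: their steps were -3.30 ± 0.12 and 0.89 ± 0.1, and -1.33 ± 0.057 and 0.34 ± 0.054. For each of these the difference between the steps passed the test, with 2.75 ± 0.12 for Ccl20 (edgeR adjusted p = 8.18e-10) and -4.19 ± 0.18 for Klhl40 (edgeR adjusted p = 1.02e-09). The genes in the account of the 2 steps were picked after their values were seen.

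**Figure D5:**
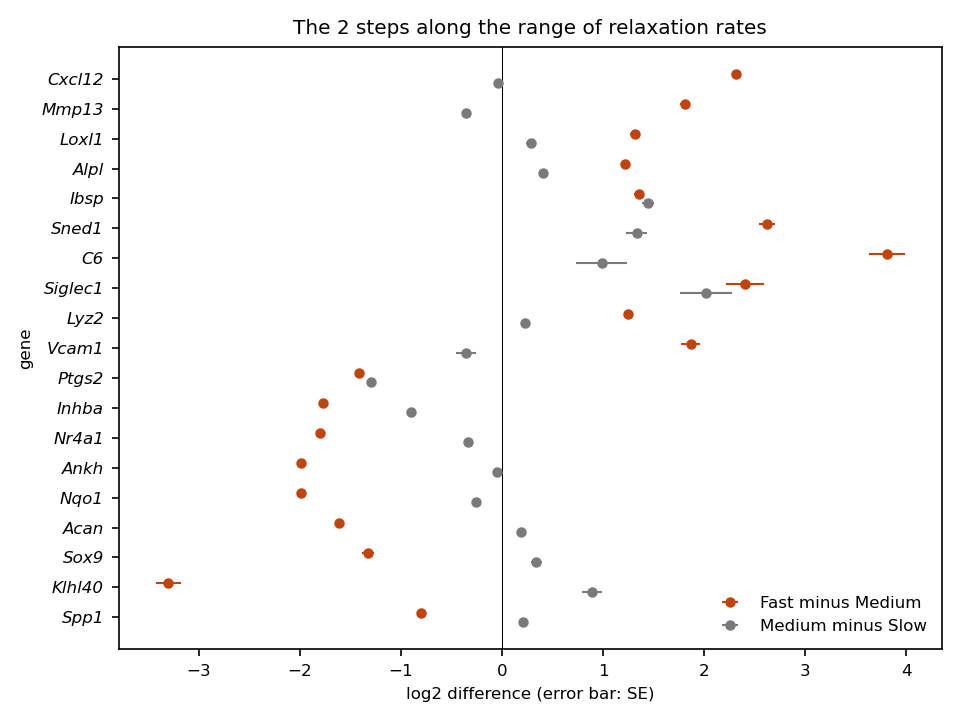
Log2 difference with its SE (x axis) of 19 genes for Fast minus Medium (orange) and Medium minus Slow (grey), which share the Medium libraries. Cxcl12, Ankh and Nqo1 have a larger Fast minus Medium step, Ibsp and Ptgs2 have steps of similar size, and for Klhl40, Sox9 and Spp1 the steps lie on opposite sides of 0.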

How the data were processed

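Messenger RNA of 9 samples in 3 groups of 3 was measured, and 6 of them, Fast and Medium, form the comparison. The authors deposited whole-number counts per gene and sample and FPKM values, per the file headers; HTSeq, Cufflinks 2.1.1, Bowtie 0.12.9 and the mouse build mm10 appear in the submitters' processing notes, while the table's identifiers are rat Ensembl ones, so the build of its coordinates is not given in the sources used here. No source says whether counting used strand. The authors' deposited fold changes and p-values were not used, and 1 line of the table was not analysed here.

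From the counts, genes were kept with filterByExpr of edgeR 4.0.16 (minimum count 10, smallest group 3), which left 14406 of 33539 genes with 99.91% of counts. TMM factors were used, and all 9 samples were fitted in 1 model, without covariates, by the quasi-likelihood test in R 4.3.3, with Benjamini-Hochberg adjustment over all tested genes and a threshold of 0.05. The contrast of the steps came from the same fit. CPM used the TMM factors. The script was tested on simulated counts. It recovered 36 of 67 genes changed 1.5-fold, 54 of 67 changed 2-fold and 63 of 66 changed 4-fold. Of its 170 calls there, 17 were false, so small differences are often missed and some calls are wrong. Where a symbol stood on several rows, the row with the most counts was used.

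The members and lists were chosen with earlier results of these data known. Genes were named by rule: among genes past the threshold, averaging 50 counts or more in the 6 libraries, with a proper symbol, not mitochondrially encoded, and no overlap in CPM, the 15 largest rises and the 15 largest falls; in each list the first 3 members and up to 5 others with the smallest adjusted p; and the 10 genes with the highest CPM. Alternatives were median-of-ratios, upper quartile and library size scaling, DESeq2 1.42.0, limma-voom (limma 3.58.1), limma on log2(FPKM + 1) of the authors' FPKM, other filters, a replicate block, the 6 samples alone and each library left out. Promoter windows are RefSeq's (GRCr8), matched by symbol. The numbers 1 to 3 of the libraries were not taken to pair them. Results for a few single genes are not reported here, though they count in the totals.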

Additional observations from a re-analysis of the deposited data

How the results depend on the processing

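The count of 4750 genes between Fast and Medium lay between 3920.0 and 4626 when 1 library was left out, at 4643 with the replicate number as a block and between 4253 and 4963 under the other alternatives. No gene among the 4750 was called in the opposite direction by an alternative. The count at 2-fold or more, 729, was 286 with limma on log2(FPKM + 1), whose pseudocount shrinks the differences of low genes. Upper quartile factors moved the median of all genes by 0.044 and library size alone by 0.07, and with them the share of higher calls went from 47.5% to 57.9% and 63.9%. Samples with the same number correlated by 0.0221, 0.0427 and 0.00922 after group means were removed, so the numbers were not taken as pairs. The count of genes whose steps differ, 1741, lay between 1208 and 2003 when 1 library was left out. Of 182 called genes given with values in the text, 178 kept their call under all 17 alternatives; Fam50a lost it with limma-voom (3.36), Jun with library size alone (-0.17), Pparg when some libraries were left out, and Sp7 both then and with upper quartile factors, library size alone, DESeq2, the replicate block and the 6 samples alone. List medians are followed here only where the text gives them, and those whose sign turned are described above. Medians of other lists also moved by over 1.5 times and are not listed. Library size alone moved by over 1.5 times those of bone matrix genes (-0.0853), osteoblast factors (-0.11), collagens (0.208), proteases (-0.0435) and YAP/TAZ targets (-0.124). It also did so for growth factors (-0.0502), WNT genes (0.205), glycolysis genes (-0.0308) and mechanosensitive channels (-0.132). With limma on log2(FPKM + 1) the medians of proteoglycans (-0.105), interferon-stimulated genes (0.244) and axon guidance genes (0.159) moved by over 1.5 times. Library size alone also gave 12 higher replication genes, 3 lower BMP members, 3 lower collagen-modifying enzymes and 3 lower oxidative phosphorylation genes, and DESeq2 gave 3 higher BMP members. Requiring 1 CPM in 3 libraries moved that of proteases to -0.195, and upper quartile factors those of proteases to -0.07, growth factors to -0.0766 and glycolysis genes to -0.0573. Directions turned only for genes without a call: Acp5 (0.021) and Itgb1 (0.0088) with library size alone, Grem1 with upper quartile factors (0.014) and library size alone (0.041), and Col1a2 without Fast library 2 (-0.19, against at most 0.24 without another library). Thy1, Ctsk, Nfe2l2 and Ptprc gained a call as higher in Fast with library size alone. Low genes are limited by their counts, with 12.0% called under 1 CPM.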

Other observations

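Genes that guide axons and cells, the semaphorins, ephrins, slits and their receptors, were higher in Fast for 14 of 31 tested members and lower for 7, with a median log2 difference of 0.302. Slit3, a secreted repellent that stromal and bone cells also make, was at 154, 149 and 151 CPM in the Fast libraries and 83.3, 77.1 and 79.5 CPM in the Medium libraries. The groups did not overlap and the rise was 0.92 ± 0.042 (SE, edgeR adjusted p = 2.92e-10). Sema3d, a secreted semaphorin, fell by 1.46 log2 units. Sema7a, a membrane-bound semaphorin that binds integrins, was highest in Medium, at 85.8 ± 2.17 CPM (SD, n = 3), against 41.2 ± 0.97 CPM in Fast and 53.1 ± 3.87 CPM in Slow.

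Of 17 genes of mechanosensitive channels and cell junctions, 3 were higher in Fast and 8 lower, with a median of -0.202. Piezo1, a stretch-gated cation channel, was at 477, 524 and 509 CPM in the Fast libraries and 432, 435 and 436 CPM in the Medium libraries. It rose by 0.21 ± 0.035 (SE, edgeR adjusted p = 0.000251). Its relative Piezo2 moved the other way, from 4.73 ± 0.154 CPM in Medium to 2.04 ± 0.377 in Fast, a difference of -1.21 ± 0.21. Kcnma1, a large-conductance potassium channel, and Pkd1, polycystin 1, fell by 1.71 and 0.59. Gja1, the gap junction protein connexin 43, rose by 0.35 ± 0.023. Lysosome and autophagy genes were higher for 12 of 27 and lower for 6, among them Ctsh, cathepsin H, which rose by 0.68 ± 0.043, and Lamp1, a lysosomal membrane protein, by 0.29 ± 0.023.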
